A study of Mus musculus with 4 samples.

Results

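Liver RNA was compared between female mice that ran and mice that did not, with and without amyloid, to see where the training response of a gene depended on amyloid. The measure was the difference log2(FI/FS) minus log2(VI/VS), computed for each gene from all 4 libraries of the series. It was described for 9334 of the 35275 genes listed, namely those with at least 5 CPM (counts scaled to library size with TMM factors) in at least 1 library. A further 13 skeletal muscle genes were set aside, and 2 genes past the filter had no ratio because they had no counts in 3 libraries. The mice were 26 weeks old. They carried the amyloidogenic Apoa2c allele, which the study describes as a congenic R1.P1-Apoa2c strain on a SAMR1 background and the sample labels as an AKR/J strain with an Apoa2c congenic genotype. All 4 groups therefore carry the allele, the vehicle groups included. VS mice received vehicle and stayed sedentary, VI mice received vehicle and interval training (IT, treadmill running that alternates fast and slow bouts), FS mice were injected intravenously with AApoAII fibrils and stayed sedentary, and FI mice were injected with fibrils and given IT, which lasted 16 weeks. Each group is 1 library made from liver tissue of 4 mice pooled before RNA extraction, so no value has a replicate error, no test across mice exists, and the pool and the treatment cannot be told apart. Total counts ran from 23442935 to 28814802, and the intervals below come from Poisson redraws of the counts and cover counting error only. Levels in the 4 libraries are listed below in the order VS, VI, FS, FI. At 3 counts, the limit that a count of 0 allows, a gene has between 0.102 and 0.127 CPM. The 9 hepatocyte markers (Alb, Ttr and others) were present in every library and summed to between 165749 and 181549 CPM.

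AApoAII amyloid is formed from apolipoprotein A-II, a protein of high-density lipoprotein that the liver secretes, and injected fibrils act as seeds for its deposition. A liver under such a load may draw on several protein quality systems: cytosolic chaperones controlled by heat shock factor 1 (HSF1), and the unfolded protein response (UPR) of the endoplasmic reticulum, whose chaperones fold secreted proteins. Exercise in turn moves hepatic fuel genes controlled by PPAR alpha, the fatty acid sensor of the liver. A positive difference means that the trained to sedentary ratio (the IT ratio) was higher in fibril livers than in vehicle livers, and a negative one that it was lower. The same number is obtained when the fibril to vehicle ratio of sedentary livers is subtracted from that of trained livers.

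The difference was small for most genes, with a median of -0.01 and an SD of 0.374 on the log2 scale. It was above 1 in 76 genes, which is 0.814% of those described, and below -1 in 106 genes, which is 1.14%. At a threshold of 1.5-fold, 436 genes (4.67%) were higher and 492 genes (5.27%) lower. Of these, 74 of the 76 genes and all 106 had an interval clear of 0. The whole interval lay beyond the threshold in 24 and 34 genes. The central 95% ran from -0.86 to 0.82 among 3822 genes whose highest value was below 20 CPM, and from -0.67 to 0.74 among 1438 genes that reached 100 CPM, so weakly expressed genes spread more. The genes nearest the thresholds were Utp23 (5.002 CPM) inside and Lect1 (4.997 CPM) outside the filter, Tnfaip8l1 (1.004) and Mrps6 (0.992) at the upper limit, and Dnajc10 (-1.003) and Bcap29 (-0.995) at the lower one.

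The differences took the same forms at both ends, in unequal shares. Of the 76 genes with a difference above 1, 64 had a vehicle IT ratio below 0, against 47.8% of all genes, and 61 (80.3%, against 18.5% of all genes) were lower with training in vehicle livers and higher with it in fibril livers. Of the 106 genes below -1, 71 (67.0%, against 19.3%) were higher with training in vehicle livers and lower with it in fibril livers. A change beyond 1.5-fold in fibril livers only was seen in 35 of the 76 and 49 of the 106, against 6.24% of all genes, and a change in vehicle livers only in 19 and 28, against 4.24%. Both ratios passed 1.5-fold in opposite directions in 10 genes of each set. Genes were picked by the difference of these ratios. Larger shares of moved or opposite ratios than over all genes follow from that choice. The library farthest from the mean of the other 3 was FI for 27 of the 76 genes, FS for 22, VI for 15 and VS for 12. For the 106 genes it was VS in 37, FS in 37, FI in 27 and VI in 5. Over all genes the shares were 30.9% for VS, 17.4% for VI, 26.4% for FS and 25.3% for FI; VI had 4.72% of the 106.

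**Figure D1:**
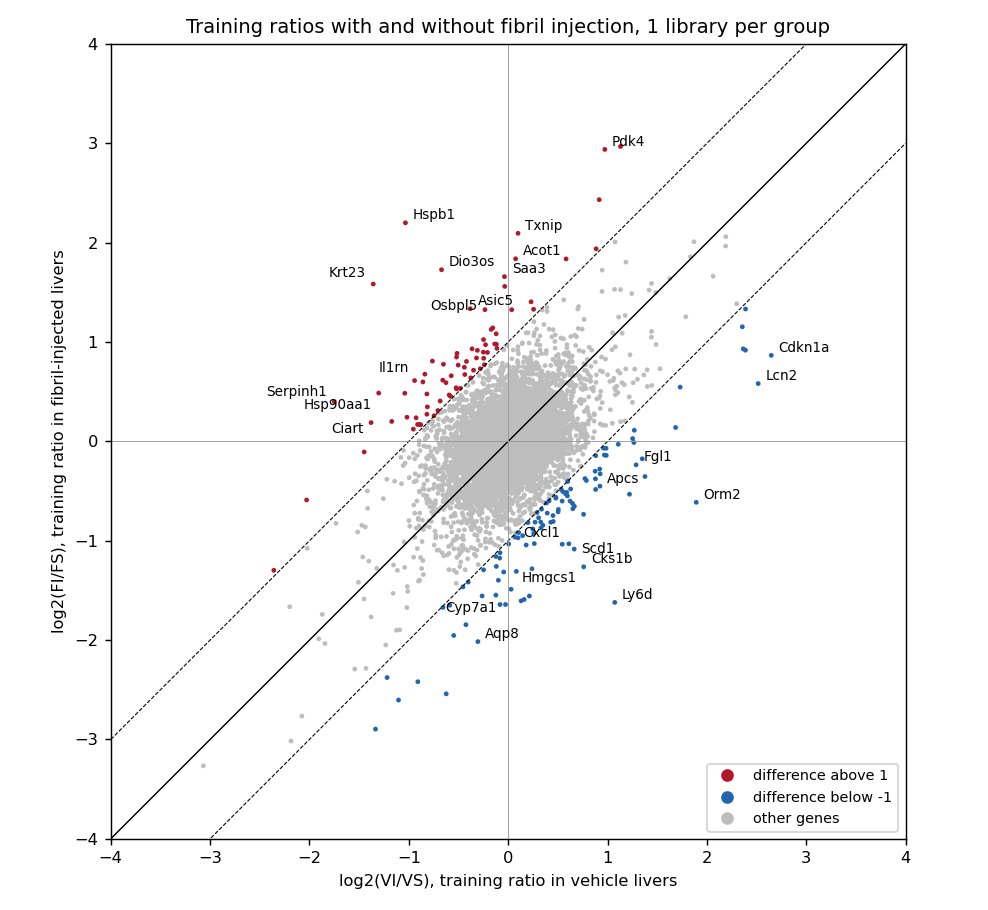
Log2 training ratio in vehicle livers (VI/VS, x axis) against that in fibril livers (FI/FS, y axis) for the 9334 genes, 1 point per gene. Dashed lines mark a difference of 1 and -1 from the diagonal. The 76 genes in red lie above the upper line, mostly in the upper left quadrant, and the 106 in blue below the lower one. Genes with the largest differences are labelled, and Sult2a3, with a fibril ratio of -6.24, lies outside the plotted range.

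Heat shock genes, most of them cytosolic, were among the most positive. Hspb1 (chr5:135887919-135889563, plus strand, mm10), a small heat shock protein that binds misfolded polypeptides, had the largest difference by its lower bound. It stood at 13.7, 6.69, 4.81 and 22.2 CPM. Its level was thus lower with training in vehicle livers, with a log2 ratio of -1.03 (-1.32 to -0.76). In fibril livers it was higher with training, with 2.20 (1.93 to 2.48), which gives a difference of 3.23 (2.87 to 3.62). By contrast, the study's quantitative PCR of single mice gave higher Hspb1 mRNA in VI and in FS than in VS. The pooled libraries had it lower in both. Hsp90aa1, the stress-inducible cytosolic HSP90, was at 192, 77.7, 124 and 174 CPM in that order. Its difference was 1.79 (1.69 to 1.89), and VI was the low library. Serpinh1, or HSP47, is a collagen chaperone of the endoplasmic reticulum. It was at 5.29, 1.56, 2.88 and 3.80 CPM in the same order, a difference of 2.15 (1.49 to 2.85). That difference rests on 38 to 125 counts per library. It was 1.16 from the deposited FPKM with a pseudocount of 1, which pulls weakly expressed genes towards 0.

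The same sign was found for several other chaperones and co-chaperones. Hspa4l, a co-chaperone of the HSP110 family, had a difference of 1.22 (0.74 from FPKM), Stip1, the adaptor that joins HSP70 to HSP90, of 1.16, and Fkbp4, an HSP90-bound immunophilin, of 1.05. The constitutive Hsp90ab1, the most abundant of these at 957, 675, 582 and 782 CPM, differed by 0.93 (0.89 to 0.97). Of 29 HSF1 target genes on the list, 26 passed the filter. The difference was above 0 in 20 of them, against 48.5% of all genes, and above 1 in 6. It exceeded 1.5-fold in 10 (38.5%), against 4.67% of all genes. Their median was 0.378 (0.330 to 0.476), with a median log2 IT ratio of -0.43 in vehicle livers and 0.07 in fibril livers. Not every target followed, since 6 were below 0, the lowest being Bag3, a co-chaperone of HSP70, at -0.54. Hspa1b, an inducible HSP70, had a difference of 0.30 but was lower with training in both settings. Training went with a lower vehicle level in 21 of the 26, against 47.8% of all genes. Muscle also expresses these chaperones, and the 102 skeletal muscle markers summed to 211, 74.3, 49.7 and 48.0 CPM, with 5, 19, 41 and 50 of them at 0. The part of muscle RNA in the VS values was not tested. In bulk tissue, fewer cells of a type and less RNA per cell cannot be told apart.

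HSF1 binds inverted GAA repeats. The sequence GAANNTTC, read on both strands (it is its own reverse complement), was found in the 300 bases around the start, 250 before and 50 after, of 9 of 22 HSF1 list members with a RefSeq promoter (40.9%), against 7.95% of 27025 promoters. The median difference was 0.300 in the 9 genes with the sequence and 0.358 in the 13 without it, so its presence in this window did not separate members by size of difference. The promoters of Hspb1 (chr5:135887669-135887968, plus strand) and Fkbp4 (chr6:128438607-128438906, minus strand) are shown, both GRCm38.p6, as the members with the sequence whose differences were largest. Capitals mark the matches, which begin 117 and 97 bases before the start of Hspb1 and 151 before that of Fkbp4.
Hspb1: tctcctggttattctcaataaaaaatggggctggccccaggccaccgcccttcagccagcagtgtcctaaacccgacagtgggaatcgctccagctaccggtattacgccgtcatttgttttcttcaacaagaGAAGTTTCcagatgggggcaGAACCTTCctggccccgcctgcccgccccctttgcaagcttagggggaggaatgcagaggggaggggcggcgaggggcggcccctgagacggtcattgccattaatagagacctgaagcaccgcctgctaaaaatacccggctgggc
Fkbp4: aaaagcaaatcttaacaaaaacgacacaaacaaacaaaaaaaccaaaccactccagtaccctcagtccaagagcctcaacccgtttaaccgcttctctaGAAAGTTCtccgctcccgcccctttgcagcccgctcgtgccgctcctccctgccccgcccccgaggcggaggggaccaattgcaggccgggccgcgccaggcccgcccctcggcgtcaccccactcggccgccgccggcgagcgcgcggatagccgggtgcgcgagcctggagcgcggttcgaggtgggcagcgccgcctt

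Genes of fatty acid use shifted as a block. All 45 PPAR alpha and fatty acid oxidation genes past the filter, of 46 on the list, had a difference above 0, against 48.5% of all genes, and 15 (33.3%) exceeded 1.5-fold. Their median difference was 0.469 (0.448 to 0.511), the highest of the 45 ranked lists. The step was modest in most members, only 2 of which passed 1. With training, 34 of the 45 were lower in vehicle livers (median log2 ratio -0.19) and 40 were higher in fibril livers (median 0.26), 29 of them switching sign. Over all genes, 47.8% were lower in vehicle livers and 18.5% switched sign in this direction. FS was low for these genes: the median fibril to vehicle log2 ratio was -0.73 in sedentary livers and -0.21 in trained ones.

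Pdk4, the kinase that shuts off pyruvate dehydrogenase and so spares glucose, was at 26.0, 51.0, 5.79 and 44.5 CPM. Both IT ratios were positive, 0.97 in vehicle and 2.94 in fibril livers, and the difference of 1.97 (1.71 to 2.25) came with a low FS. Acot1, a cytosolic acyl-CoA thioesterase, was at 342, 361, 83.1 and 297 CPM, so FS again stood apart and the difference was 1.76 (1.68 to 1.84). Vnn1, a pantetheinase, and Acot3, a peroxisomal thioesterase, differed by 0.97 and 0.94. The fatty acid hydroxylases Cyp4a10 and Cyp4a14 were about level in VS and FI, at 1916 and 1926 CPM for Cyp4a10, with 2173 in VI and 904 in FS, and differed by 0.91 and 0.83. Reads of the Acot and Cyp4a genes may be shared among near-identical copies, so values of single members are uncertain.

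Carbohydrate genes gave some of the largest single values. Txnip, an inhibitor of glucose uptake that responds to glucose, was at 171, 183, 91.8 and 392 CPM. Training left it nearly level in vehicle livers (0.10) and higher in fibril livers (2.09), a difference of 1.995 (1.91 to 2.08). G6pc, the last enzyme of glucose release, was higher with training in both settings, at 206 and 381 CPM in VS and VI and 181 and 694 in FS and FI, a difference of 1.05 (0.98 to 1.12). By contrast, the gluconeogenesis and fasting list as a whole had a median of 0.041 over 25 genes, with 14 above 0 and 11 below, and its median turned to -0.01 with total counts and from FPKM. Ppargc1a, a coactivator of that programme, was higher with training in both settings and differed by -0.31 (-0.59 to -0.04).

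Genes of the circadian clock differed between the 2 training comparisons in both directions. Arntl, which encodes the activator BMAL1, was higher with training in both settings (2.19 and 2.06), and its difference of -0.13 had an interval across 0 (-0.91 to 0.65). Dbp, a direct target of that activator, was lower with training in both, at 102, 22.2, 80.9 and 25.5 CPM, a difference of 0.53 (0.35 to 0.72). Nr1d1, a repressor of Arntl, was at 30.0, 7.10, 49.0 and 7.19 CPM, a difference of -0.69. Ciart, a repressor of the CLOCK-BMAL1 pair, had the largest clock value: at 15.6, 5.99, 22.1 and 25.2 CPM, it was lower with training in vehicle livers but not in fibril livers, a difference of 1.57 (1.25 to 1.90). Per2, another repressor, had the same signs (-0.84 and 0.11) and differed by 0.96, Rgs16, a regulator of G protein signalling with a daily rhythm in liver, by 1.10, and Clock by -0.87. The 14 core clock genes had a median of 0.249 and the 16 output genes of 0.358. Of the output genes, 14 were above 0, against 48.5% of all genes. No source used here gives the hour at which each group was sampled, and its part in these values was not tested. The E-box CACGTG, bound by CLOCK and BMAL1 and its own reverse complement, was present in 3 of 10 core clock promoters and 2 of 15 clock output promoters. Its share was 7.24% of all promoters and 10.9% of those of genes past the CPM filter. Of the other sequences searched, the D-box (TTATGTAA or TTACGTAA) was in 0 of 15 clock output promoters and 1.06% of all. The cyclic AMP element TGACGTCA was in 1 of 20 gluconeogenesis promoters, 1.88% of all and 3.39% of those of genes past the filter. Ciart (chr3:95882179-95882478, minus strand, GRCm38.p6) is shown because it holds 3, in capitals, beginning 116, 58 and 44 bases before the start.
Ciart: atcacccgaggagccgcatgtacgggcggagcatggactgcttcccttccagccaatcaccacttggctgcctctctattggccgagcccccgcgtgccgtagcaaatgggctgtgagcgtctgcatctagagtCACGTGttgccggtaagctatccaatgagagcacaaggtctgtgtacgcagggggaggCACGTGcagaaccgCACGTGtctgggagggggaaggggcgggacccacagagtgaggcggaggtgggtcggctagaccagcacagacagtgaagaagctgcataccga

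The other genes of the 15 most positive were of mixed function. Krt23, a keratin of hepatocytes and bile duct cells, was at 41.8, 16.3, 4.40 and 13.2 CPM, a difference of 2.94 (2.61 to 3.29). Dio3os, annotated as a long noncoding RNA, was at 19.5, 12.2, 2.95 and 9.80 CPM, a difference of 2.40 (1.99 to 2.82). In both, FS was the low library. Osbpl5, an oxysterol-binding protein relative, had a difference of 1.56 (0.92 from FPKM) with the same low FS, and Asic5, an acid-sensing ion channel of the bile duct, one of 1.72 on 110 to 228 counts. Saa3, an acute phase protein made largely outside hepatocytes, was at 7.83, 7.64, 11.3 and 35.6 CPM, high in FI alone, and Il1rn, the interleukin-1 receptor antagonist, at 14.5, 7.55, 21.3 and 32.6. Their differences were 1.70 and 1.55, opposite in sign to those of most acute phase genes below. Opposite-strand genes overlap Txnip and Ciart, with at most 65 counts in any library.

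**Figure D2:**
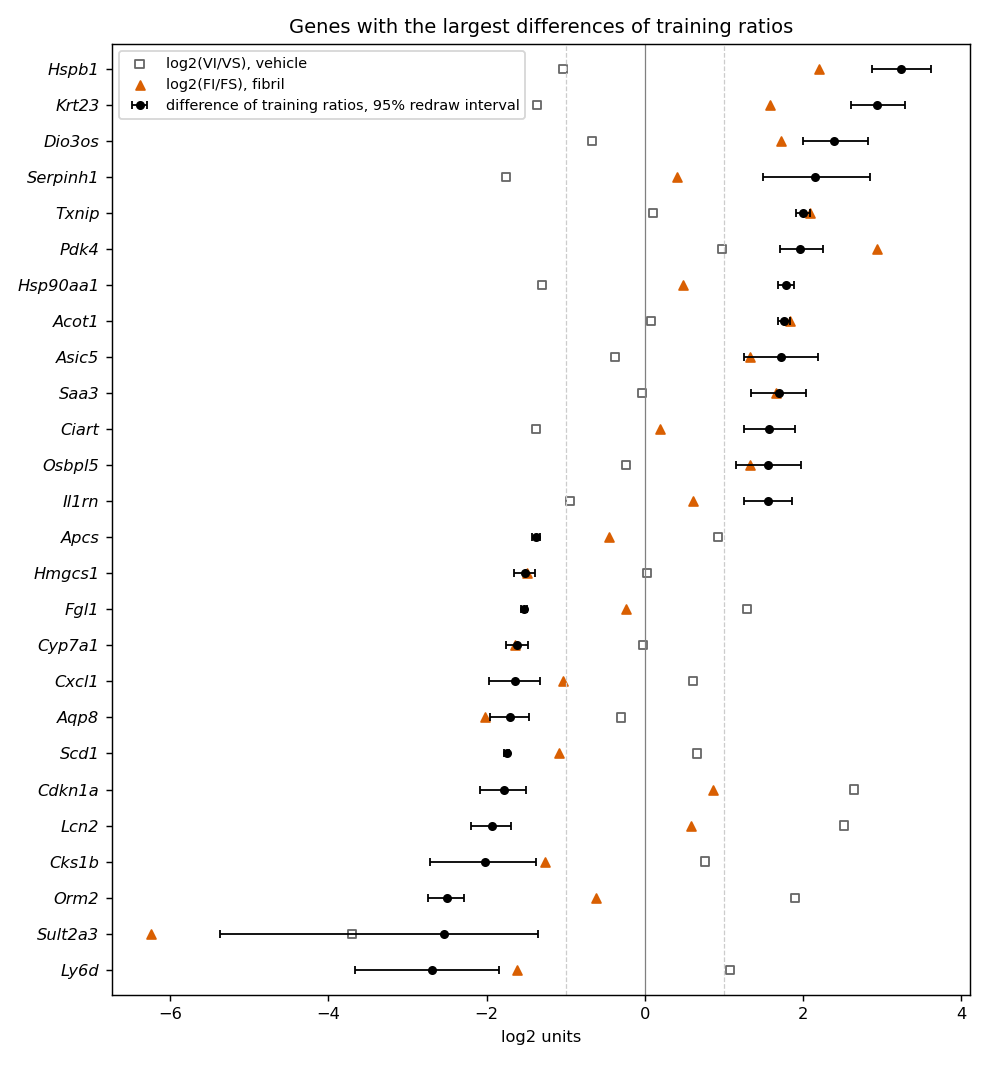
Difference of training ratios (black points, bars are 95% Poisson redraw intervals) with log2(VI/VS) (open squares) and log2(FI/FS) (orange triangles) for 26 genes with the largest differences, in log2 units. For Hspb1 the square is at -1.03 and the triangle at 2.20, and for Orm2 they are at 1.89 and -0.61.

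UPR genes of the endoplasmic reticulum mostly went the other way. Of 36 UPR chaperones and folding enzymes past the filter, 34 had a difference below 0, against 51.5% of all genes, and 5 below -1. Lower beyond 1.5-fold were 12 (33.3%), against 5.27% of all genes. The median was -0.351 (-0.425 to -0.303). In 20 of the 36, against 19.3% of all genes, the level was higher with training in vehicle livers and lower with it in fibril livers. These are genes whose level was high in FS: the median fibril to vehicle log2 ratio was 0.93 in sedentary and 0.59 in trained livers. Hspa5, the master chaperone BiP, was at 308, 430.3, 1161 and 823 CPM, a difference of -0.98 (-1.03 to -0.93). Sdf2l1, a BiP partner, was at 6.73, 11.4, 69.8 and 42.0 CPM, a difference of -1.49 (-1.79 to -1.20). FI lay between the vehicle libraries and FS in both genes.

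The pattern was repeated in other classes of the response. Derl3, a channel subunit of degradation, differed by -1.75 (-2.65 to -0.99), with 18 counts in VS and 44 in VI, and by -1.13 from FPKM. It is also on the B and plasma cell marker list given below. Dnajb9, a BiP co-chaperone, was at 36.5, 57.3, 89.6 and 56.0 CPM, so that FI was level with VI, and differed by -1.33 (-1.48 to -1.18). Manf, a secreted stress factor, differed by -1.14 and Hyou1, a large HSP70 of the reticulum, by -0.94. The lectin chaperones were nearly level: Calr differed by -0.06, at 336, 316, 651 and 586 CPM. Xbp1, the transcription factor spliced by IRE1, differed by -0.22.

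Promoters of UPR genes often carry the ER stress response element (ERSE), CCAAT and CCACG separated by 9 bases. It was found on either strand in 9 of 31 list members with a promoter (29.03%) and in 0.130% of all promoters. This search was added after the values had been seen. Members with and without it had median differences of -0.272 and -0.310. Derl3 (chr10:75893148-75893447, plus strand) and Hspa5 (chr2:34771840-34772139, plus strand), the members with the element and the largest differences, are shown from GRCm38.p6 with the element in capitals. It begins 156 bases before the RefSeq start in Derl3, on the opposite strand, and 65 before it in Hspa5.
Derl3: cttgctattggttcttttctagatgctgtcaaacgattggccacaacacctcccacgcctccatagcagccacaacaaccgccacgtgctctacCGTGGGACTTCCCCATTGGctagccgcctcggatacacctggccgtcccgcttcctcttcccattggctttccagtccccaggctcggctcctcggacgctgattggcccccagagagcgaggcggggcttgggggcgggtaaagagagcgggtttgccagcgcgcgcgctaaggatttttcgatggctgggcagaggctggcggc
Hspa5: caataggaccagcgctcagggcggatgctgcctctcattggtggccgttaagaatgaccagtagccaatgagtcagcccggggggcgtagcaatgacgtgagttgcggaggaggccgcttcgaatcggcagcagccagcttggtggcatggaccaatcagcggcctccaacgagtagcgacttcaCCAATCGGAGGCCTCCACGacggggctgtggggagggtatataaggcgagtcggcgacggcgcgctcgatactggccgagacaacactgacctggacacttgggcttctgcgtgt

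Acute phase genes, which hepatocytes switch on under inflammatory cytokines, held the lowest median of the large lists. It was -0.467 (-0.514 to -0.418) over 37 genes, 27 of them below 0, 8 below -1 and 15 (40.5%) beyond 1.5-fold, while 2 were above 1. Over all genes, 51.5% were below 0, 1.14% below -1 and 5.27% lower beyond 1.5-fold. Training went with higher levels of 31 of the 37 genes in vehicle livers, which started low, and of 23 in fibril livers, which started high. Orm2, an orosomucoid, was at 9.70, 36.1, 149 and 97.4 CPM, a difference of -2.51 (-2.74 to -2.29). Fgl1, a fibrinogen-like hepatokine, was at 545, 1331, 1798 and 1526 CPM, a difference of -1.52 (-1.56 to -1.49). Apcs encodes serum amyloid P component, which binds amyloid fibrils of all types, and was at 308, 584, 1090.2 and 798 CPM, a difference of -1.37 (-1.42 to -1.33). In each of these 3 genes the trained pool was the higher one with vehicle and the lower one with fibrils.

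Other acute phase genes were higher with training in both settings and turned with the scale. Lcn2, lipocalin 2, was at 6.35, 36.5, 367 and 549 CPM. Its log2 difference was -1.93 (-2.20 to -1.69), but on the linear scale the increase was 152 CPM larger in fibril than in vehicle livers. Saa1 and Saa2, the inducible serum amyloid A genes, likewise differed by -1.43 and -1.20 on the log2 scale and by 733 and 599.5 CPM the other way on the linear scale. Cxcl1, a neutrophil chemokine, had no such conflict, at 6.82, 10.4, 48.0 and 23.5 CPM and a difference of -1.64 (-1.96 to -1.33). Socs3, a feedback inhibitor of cytokine signalling, differed by -1.19. Reads of Orm1 and Orm2, and of Saa1 and Saa2, may be shared between near-identical copies.

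Complement followed at a smaller size. Of 28 genes, 22 were below 0, against 51.5% of all genes, with a median of -0.252 (-0.314 to -0.166). C8a, a chain of the membrane attack complex, was at 229, 422, 504 and 456 CPM, a difference of -1.03. C3, the central component, was at 7897 to 11837 CPM and differed by only -0.16. The sequence TTCNNNGAA, bound by STAT factors, was held by 8 of 28 acute phase promoters (28.6%) and 8.47% of all, and members with and without it had medians of -0.404 and -0.496. Macrophage markers had the same sign. The 21 Kupffer cell and macrophage markers, none at 0, summed to 624, 729, 871 and 800 CPM, and their median difference was -0.302 over 18 genes. The 22 neutrophil markers summed to 12.9, 43.9, 392 and 568 CPM with 6 to 11 of them at 0, and without Lcn2, which is one of them, to 6.52, 7.43, 24.9 and 18.6 CPM. The B and plasma cell markers summed to 35.8, 24.8, 66.7 and 51.8 CPM, with a median difference of 0.199 over 4 genes. Derl3 had the lowest of these, -1.75. The part of immune cells in the acute phase values and in that of Derl3 was not tested.

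Most cholesterol synthesis genes were lower with training in both settings. All 26 cholesterol synthesis genes were lower in FI than in FS, with a median of -0.919, and 24 had a vehicle IT ratio below 0, with a median of -0.517, so the difference is one of degree. Over all genes, the fibril IT ratio was below 0 in 48.6% and the vehicle one in 47.8%. The median difference of the list was -0.231 (-0.324 to -0.157), with 4 genes below -1. Hmgcs1, the enzyme before the rate-limiting step, was at 115, 117, 98.3 and 35.0 CPM, low in FI alone, with a difference of -1.52 (-1.65 to -1.39). Sqle, squalene epoxidase, differed by -1.50 and Mvd, a later enzyme of the mevalonate pathway, by -1.01.

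Cyp7a1, the rate-limiting enzyme of bile acid synthesis from cholesterol, had the same form as Hmgcs1: 114, 112, 107 and 34.1 CPM, a log2 IT ratio of -0.03 in vehicle and -1.64 in fibril livers, and a difference of -1.61 (-1.75 to -1.48). Aqp8, a water channel of the bile canaliculus, was at 36.2, 29.3, 39.8 and 9.84 CPM, a difference of -1.71. The bile acid list as a whole had a median of 0.033 over 25 genes, which turned to -0.02 with total counts and -0.03 from FPKM, with Cyp7a1 the 1 member below -1. Scd1, the desaturase that makes oleate, was at 1249.5, 1981, 2181 and 1029 CPM, higher with training in vehicle livers and lower in fibril livers, a difference of -1.75 (-1.78 to -1.72). The lipogenesis list did not share this, with a median of 0.079 and 1 of 23 genes below -1. Fads2, another desaturase, differed by 0.90.

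Stress and growth arrest genes were higher with training in all 7 cases in vehicle livers and in 5 of 7 in fibril livers. Cdkn1a, the cell cycle inhibitor p21, was at 5.63, 35.4, 30.8 and 56.1 CPM, a log2 difference of -1.78 (-2.08 to -1.50). On the linear scale it was -4.5 CPM, so the increase with training was of similar size in both settings. Gadd45g, a stress sensor upstream of p38, was at 6.65, 32.8, 60.7 and 159 CPM, a log2 difference of -0.92 (-1.18 to -0.67) but 71.7 CPM more of an increase in fibril livers on the linear scale. The list of 7 such genes had the lowest median of all ranked lists, -0.915, with 3 below -1 including Btg2 and Cdkn2c. The p38 MAPK list had a median of 0.184 over 16 genes, to which Hspb1 belongs, and of 0.03 with a filter at 1 CPM. Map2k6, a kinase that activates p38, was at 24.6, 22.6, 21.1 and 41.5 CPM, high in FI alone, a difference of 1.10 (0.88 to 1.32). Apoa2, the amyloid precursor gene, was at 8482, 6584, 5451 and 5627 CPM, a difference of 0.41 (0.40 to 0.43), with VS the highest library. Its log2 IT ratio was -0.37 in vehicle and 0.05 in fibril livers. Quantitative PCR of single mice in the study, by contrast, gave no effect of exercise on this mRNA in liver.

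The other genes named at the negative end were of mixed function. Cks1b, a cyclin-dependent kinase subunit, differed by -2.02 on 49 to 162 counts and Ly6d, a surface antigen, by -2.69 on 20 to 159 counts. Sult2a3, a sulfotransferase of steroids and bile acids, had 673, 53, 323 and 3 counts. Lower with training in both settings, it had a log2 difference of -2.54 with a wide interval (-5.37 to -1.35), resting on 3 counts in FI. From FPKM it was -0.20, with a prior of 2 counts -2.07, and on the linear scale it turned to 15.5 CPM the other way. Its reads may be shared with other Sult2a copies. Krt4 and Krt13, keratins of squamous epithelium, ranked by the same rule but have no ratio in fibril livers, with 165 and 130 counts in VI and 0 in the other 3 libraries.

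**Figure D3:**
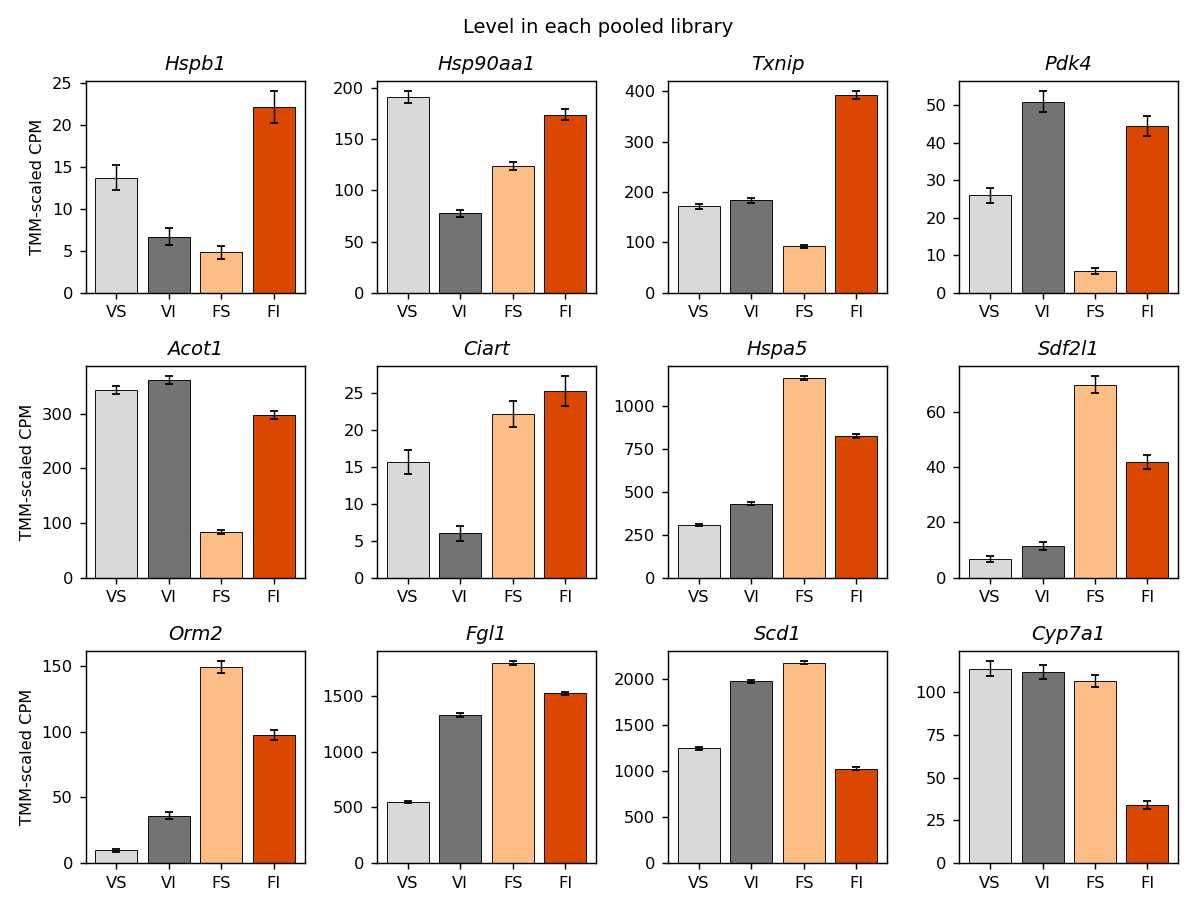
TMM-scaled CPM of named genes in each of the 4 libraries, 1 bar per library, all axes from 0. Error bars are 95% Poisson counting errors and carry no information on mice. Pdk4 and Acot1 are low in FS alone, Cyp7a1 is low in FI alone, and Hspa5 and Sdf2l1 are highest in FS.

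Among pathway sets that do not come from these lists, some near the positive end covered the same processes. Only those sets are named here for that end. Rank 5 is given further below, and the sets at the ranks between are not named. Of 746 Reactome sets with 10 to 300 genes past the filter, mitochondrial fatty acid beta-oxidation had the highest median difference, 0.350, with 15 of 15 genes above 0. The attenuation phase of the heat shock response followed at rank 4 with 0.300 and HSF1-dependent transactivation at rank 7 with 0.274. Activation of circadian genes by BMAL1 and CLOCK was at rank 8 with 0.266. The negative end was led by sets outside the lowest lists, namely insulin processing (-0.424, 11 of 13 genes below 0), peptide hormone metabolism (-0.371), and the endosomal vacuolar pathway of antigen presentation (-0.343). Regulation of the complement cascade held rank 6 from the lowest (-0.247, 14 of 16 below 0). Steps of N-glycan synthesis, which feed protein folding in the reticulum, held ranks 5, 7 and 8 from the lowest. Over all genes described, 48.5% were above 0 and 51.5% below 0. The sets share genes with each other and with the lists, and the ranks have no test.

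**Figure D4:**
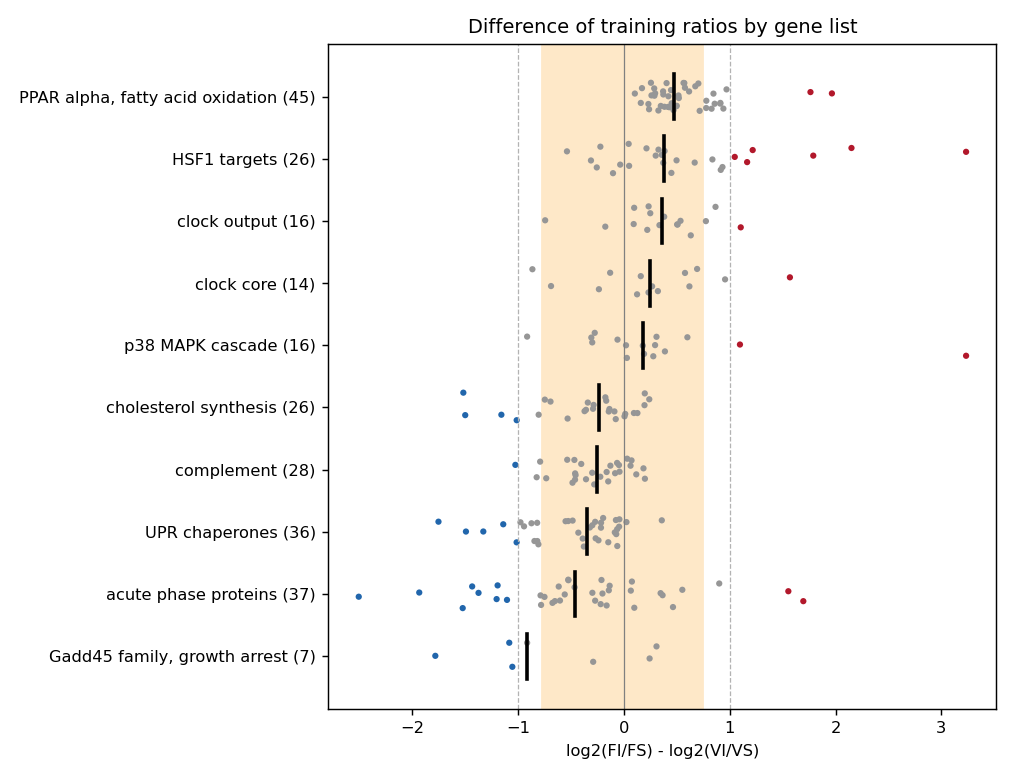
Difference of training ratios, log2 units, for each member past the filter of the gene lists (number of genes in brackets). Black bars are list medians, red and blue points lie above 1 and below -1, and the shaded band holds the central 95% of all 9334 genes (-0.776 to 0.748). All 45 fatty acid oxidation genes lie above 0, and 34 of 36 UPR genes below it.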

How the data were processed

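Per the labels, liver tissue was homogenized and pooled by group, and 1 library per group was sequenced. The authors deposited raw read counts per gene and FPKM values made from them, on build mm10. The submitters' processing notes name fastp 0.23.2, STAR 2.5 and HTSeq 0.6.1, with no role or order. Counts were scaled by TMM (edgeR 4.0.16, factors 0.9754 to 1.025). Log2 ratios used a prior of 0.5 counts. The difference of IT ratios got a 95% interval from 10000 Poisson redraws, and each IT ratio an exact conditional binomial (Clopper-Pearson) interval. No ratio was formed where both libraries had 3 counts or fewer. The steps were checked on simulated data. Reads carry no molecular identifiers, so intervals cover counting error only.

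Named genes were the 15 largest positive and 15 largest negative differences by the interval bound nearer to 0 (predicted, clone-named, pseudogene and ribosomal protein genes passed over), up to 4 members with the largest difference of each list described, and Hspb1, Gadd45g, Cdkn1a, Ppargc1a, Pdk4, G6pc, Hspa5 and Apoa2. Some genes that this rule names are not reported here. Further members were named after their values were seen. The members and the 53 gene lists were chosen with earlier results of these data known. Of 7111 Entrez identifiers in the Reactome sets, 6859 matched. Promoters are from RefSeq, GRCm38.p6 (the first listed per gene, 27025 in all), and 22 of 26 HSF1, 31 of 36 UPR and 28 of 37 acute phase members matched. Alternatives were DESeq2 1.42.0 size factors, total counts, filters at 1 and 20 CPM, a prior of 2 counts, the deposited FPKM with a pseudocount of 1, the linear scale, muscle genes kept, another threshold and the list mean.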

Additional observations from a re-analysis of the deposited data

Results flagged for a closer look

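In 15 of the genes named for the largest differences, the training ratio was on opposite sides of 0 in vehicle and fibril livers, with both counting intervals clear of 0. The difference between the settings was not tested, since each has 1 library per arm. Lower with training in vehicle and higher in fibril livers were Hspb1 (3.23), Krt23 (2.94), Dio3os (2.40), Hsp90aa1 (1.79), Asic5 (1.72), Ciart (1.57), Osbpl5 (1.56) and Il1rn (1.55). The reverse held for Ly6d (-2.69), Orm2 (-2.51), Cks1b (-2.02), Scd1 (-1.75), Cxcl1 (-1.64), Fgl1 (-1.52) and Apcs (-1.37).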

How the results depend on the processing

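With 1 library per group, no library could be left out. No paired analysis was possible because each group has 1 library. DESeq2 size factors, a prior of 2 counts and keeping the muscle genes moved no count of genes by over 1.5 times, and the first 2 moved none of the 9 medians of the main lists outside its counting interval. The counts of 76 genes above 1 and 106 below -1 depended most on filter and threshold: they were 317 and 357 with a filter at 1 CPM, 31 and 50 at 20 CPM, 26 and 52 from FPKM with a pseudocount of 1, 436 and 492 at 1.5-fold, and 24 and 34 where the whole interval had to pass. Total counts shifted all genes by a median of -0.05.

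None of these 9 medians changed sign (fatty acid oxidation, HSF1, clock core and output, UPR, acute phase, complement, cholesterol synthesis, growth arrest). With total counts the median was 0.418 for PPAR alpha genes, 0.327 for HSF1 targets and -0.517 for acute phase genes. From FPKM it was 0.415, 0.236 for clock output and -0.517 for acute phase genes. Acute phase genes gave -0.382 with a filter at 1 CPM and growth arrest genes -0.603 at 20 CPM. Means in place of medians were 0.568 for PPAR alpha genes, 0.595 for HSF1 targets, -0.495 for UPR genes, -0.399 for acute phase genes and -0.367 for cholesterol synthesis. For 8 further lists, run after the data had been seen, medians near 0 turned: with total counts to -0.0099 for gluconeogenesis, -0.018 for bile acid and -0.0482 for glucocorticoid genes, from FPKM to -0.0076, -0.0346 and -0.027, and with a filter at 1 CPM to -0.0748 for glucocorticoid genes.

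Among 74 named genes, 65 kept their sign in every alternative run for single genes. The other 9 turned on the linear scale, with (FI-FS)-(VI-VS) at 71.7 CPM for Gadd45g, 203 for Got1, 433 for Igfbp1, 152 for Lcn2, 131 for Lpin1, 733 for Saa1, 599.5 for Saa2 and 15.5 for Sult2a3, all negative on the log2 scale, and -0.455 for Lonrf3, positive on it.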

Other observations

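Most genes of the fasting and stress hormone response were higher with training in both settings. Got1, a transaminase of the malate shuttle, was at 86.6, 454, 376 and 946 CPM (VS, VI, FS, FI), a log2 difference of -1.06 and a linear one of 203 CPM in the other direction. Igfbp1, a binding protein of insulin-like growth factor, was at 154, 533, 585 and 1396 CPM, differing by -0.53 on the log2 scale. Glucocorticoid receptor targets had a median difference of 0.003 over 24 genes, with 12 above and 12 below 0, a median that changed sign with total counts, and Cdkn1a, Gadd45g and Lcn2 are on this list too, while 22 were higher with training in vehicle livers and 23 in fibril livers. Cytosolic ribosomal protein genes shifted by little but together, with 64 of 77 above 0 and a median of 0.134. Collagen biosynthesis and modifying enzymes held rank 5 among the Reactome sets, with a median of 0.299 and 15 of 21 genes above 0, and the markers of sinusoidal endothelium had a median of 0.272, with 12 of 15 above 0. Over all genes, 48.5% were above 0.

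Some genes of squamous epithelium were found in the VI library alone, while Krt23, Krt8 and Krt18 were present in all 4 libraries. A list of 10 of them, written after Krt4 and Krt13 had been seen, summed to 16.8 CPM in VI, with every member detected there and every member at 0 in VS, FS and FI. The list enters none of the differences above.

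Yam1 (chr17:39846958-39848788), an abundant noncoding transcript, was at 3121 CPM in VS and between 1732 and 2149 in the other 3 libraries, a difference of 0.87. Lars2, the mitochondrial leucyl-tRNA synthetase, moved with it, at 431 CPM in VS and between 222 and 271 elsewhere, a difference of 0.97. Gm26917 (chr17:39845074-39846245), which lies next to Yam1, was at 17.3, 14.5, 13.9 and 25.8 CPM, a difference of 1.15 (0.87 to 1.42). The origin of the reads at this locus was not tested. Neat1, the scaffold RNA of paraspeckles, was at 135, 98.7, 188 and 68.2 CPM, a difference of -1.01 (-1.12 to -0.90), while Malat1, its chromosomal neighbour, differed by 0.32.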
